A study of Drosophila melanogaster with 2 samples.

Results

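The protein of CG31388 had 210 reproducible binding regions that lay between genes and away from promoters, out of 1872 in all in *Drosophila melanogaster* embryos. A region was kept when its summit, the base of highest enrichment, lay outside every annotated gene body and more than 500 bp from every annotated transcription start site (TSS). Genes were those of Ensembl release 115 on the dm6 build, and transposable elements were not counted as genes. The values are from chromatin immunoprecipitation and sequencing (ChIP-seq) of whole embryos of mixed sex, aged 0 to 16 h. The line, strain CG31388-GFP, is transgenic and makes CG31388 fused at its C-terminus to green fluorescent protein (GFP), and the precipitation used an antibody against GFP. The 2 libraries, biological replicates 2 and 4, form 1 group. The libraries cite different protocol documents, so protocol and replicate number cannot be told apart. An embryo holds many cell types, so binding in few cells and weak binding in many cannot be told apart.

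CG31388 belongs to the ZAD zinc finger family, a fly-rich group of proteins with a zinc-finger-associated domain at one end and DNA-binding zinc fingers after it. Some members of that family are known as insulator or architectural proteins. The DNA between fly genes holds enhancers, insulators and Polycomb response elements, and the genes on its 2 sides can point away from each other (divergent), in the same direction (tandem) or towards each other (convergent). In a divergent interval both promoters face the space between the genes, and in a convergent interval both 3′ ends do.

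The sequences at the strongest intergenic summits differed in base composition. The 61 bp around the 6 strongest on arms 2L, 3L, 3R, 4 and X follow, plus strand of dm6, with runs of at least 5 A or T bases in capitals.
The peak between lncRNA:CR45641 and lncRNA:CR45643, 3R:16222462-16222522: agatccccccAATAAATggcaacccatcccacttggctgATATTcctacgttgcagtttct
The peak between COX7AL2 and CG31668, 2L:2202412-2202472: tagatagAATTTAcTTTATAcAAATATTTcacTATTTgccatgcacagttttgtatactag
The peak between Sol1 and Cyp9f2, 3R:12403119-12403179: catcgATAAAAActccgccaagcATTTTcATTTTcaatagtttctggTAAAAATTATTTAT
The peak between C15 and sp3, 3R:21520319-21520379: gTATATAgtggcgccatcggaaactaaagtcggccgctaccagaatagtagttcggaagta
The peak between CG17896 and CG17778, X:493975-494035: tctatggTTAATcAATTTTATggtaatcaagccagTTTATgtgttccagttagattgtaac
The peak between lncRNA:CR44603 and lncRNA:CR45695, 2L:1638743-1638803: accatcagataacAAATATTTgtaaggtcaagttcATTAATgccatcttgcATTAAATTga
GC content was 26.2% to 31.1% in 4 of these windows. It was 47.5% in the window beside lncRNA:CR45643 and also 47.5% in the window between C15 and sp3, and these hold only 12 and 6 capitals of the 61.

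The deposited signal, an enrichment value on a scale the sources do not state, ran from 53.8 to 391 over the 210 intergenic peaks, with a median of 74.8 and quartiles of 61.3 and 98.0. Most were near the low end: 45 exceeded 100, 8 exceeded 200 and 2 exceeded 300. The 210 were 3.88% of the 5416 intergenic candidate regions called on the pooled libraries, while the 1872 peaks were 6.51% of all 28750 candidates. The signal took part in the choice of reproducible peaks, so its gap between peaks and other candidates was built in. The weakest intergenic peak, between CG15208 and CG43901, had a signal of 53.8, and the strongest intergenic candidate that was not a peak, between alpha-Est9 and alpha-Est8, had 53.7. The weakest 3 also include a peak between lncRNA:CR44513 and lncRNA:CR42719 (53.9) and the peak between CG43336 and pxb (53.9). The next candidates below them lay between RunxA and asRNA:CR45466 (53.5) and between CG17349 and CG17350 (53.2).

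The strongest intergenic peak lay between Su(z)2 and CG13323 (2R:13035198-13035471). Its pooled signal was 391, and its signal was 144 in replicate 2 and 246 in replicate 4, where it ranked 17 and 15. Each library's signal has its own scale, so the order of ranks and not the size is comparable between them. Su(z)2 encodes a relative of the Polycomb protein Psc. The summit was 27403 bp from the 3′ end of Su(z)2 and 9381 bp from that of CG13323, in a convergent interval of 36783 bp. It was 11942 bp from the nearest TSS, and no other peak lay within 50 kb of it: the next was 50122 bp away.

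The second strongest (3R:16222373-16222619, signal 326) lay 903 bp upstream of lncRNA:CR45643, a long non-coding RNA gene, with signals of 107 in replicate 2 and 218 in replicate 4 and ranks of 45 and 26. A weaker peak sat 591 bp from it in the same interval (signal 71.0). Another lay on the far side of that gene, 1108 bp upstream of tara (3R:16224432-16224587, signal 188), which encodes a transcriptional co-regulator. The third strongest (2L:2202327-2202526, signal 281) was in the tandem interval between COX7AL2 and CG31668, with signals of 121 and 155 in replicates 2 and 4, and 2 further peaks in that interval had signals of 83.1 and 79.7.

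Both of the next peaks lay in short convergent intervals, between the 3′ ends of 2 genes. The peak between Sol1 and the cytochrome P450 gene Cyp9f2 (3R:12403033-12403246, signal 269) was in an interval of 437 bp, the shortest to hold an intergenic peak. Its signals of 102 in replicate 2 and 164 in replicate 4 gave ranks of 54 and 59, and the nearest other peak was 33314 bp away. The peak between blw, which encodes a subunit of the mitochondrial ATP synthase, and the cyclin gene CycB (2R:22802857-22803096, signal 260) was in an interval of 1340 bp, with signals of 122 and 140 in replicates 2 and 4. A separate peak of signal 148 lay 84 bp from a TSS of blw.

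The peak upstream of sp3 (3R:21520256-21520446, signal 224) shared its interval with C15, a homeobox gene, and ranked 270 in replicate 2 and 53 in replicate 4. A divergent interval of 1118 bp between CG17896 and CG17778 on the X chromosome held a peak of signal 219. The interval between lncRNA:CR44603 and lncRNA:CR45695 held 2 of the 20 strongest (signals 213 and 177) and another peak of 114. The peaks ranked 10 to 20 among the intergenic ones ran from 195 down to 144. They lay beside RasGAP1 and CG10809, slp1 and slp2, CG3149 and lncRNA:CR42794, NijA and CG43245, CG10479 and lncRNA:CR45439, ph-d and ph-p, Glut3 and lncRNA:CR45750, Psc and CG13321, Atg13 and stck, and tara.

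**Figure D1:**
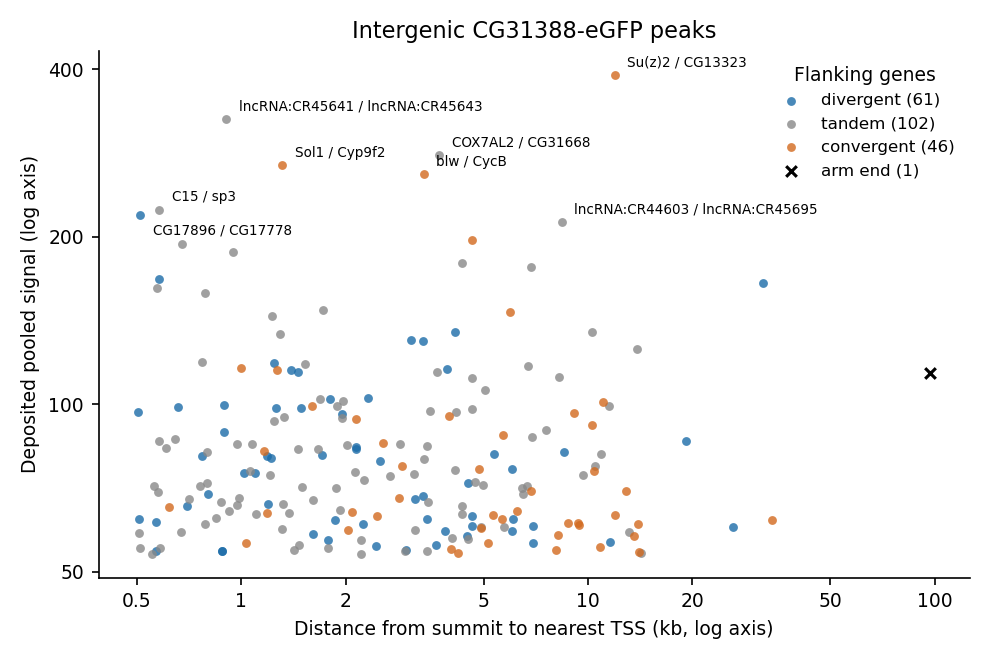
Deposited pooled signal of each of the 210 intergenic peaks (vertical log axis) against the distance of its summit from the nearest TSS in kb (horizontal log axis), coloured by the orientation of the flanking genes; the 8 strongest are labelled with their flanking genes. The strongest, between Su(z)2 and CG13323, lies 11942 bp from a TSS, and the 8 peaks over a signal of 200 are spread from 510 bp to 11942 bp.

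The median signal differed little with distance from a TSS. It was 71.4 for the 44 peaks at 501 to 1000 bp, 75.6 for the 111 at 1001 to 5000 bp and 70.7 for the 55 farther away. By orientation, the medians were 75.4 in 61 divergent, 75.2 in 102 tandem and 64.8 in 46 convergent intervals, and the quartile ranges overlapped. Convergent intervals nevertheless held 3 of the 5 strongest peaks.

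Intergenic peaks lay nearer to genes than intergenic candidates that were not peaks. The median distance to the nearest TSS was 2446.5 bp (quartiles 1189 and 5282) against 3352.5 bp, and 55 peaks (26.2%, 95% exact interval 20.4 to 32.7) were more than 5 kb from any TSS against 35.3%. The values for peaks depend on the gene set and on the 500 bp rule: the median was 4405 bp and the share 44.6% with protein-coding genes only, and the median was 1302.5 bp with a 250 bp rule. The median interval between the flanking genes was 9740 bp against 12204 bp, and the median distance to the nearest gene end was 1708 bp against 2339.5 bp. In the lists of the single libraries, the median TSS distance of intergenic regions was 2311 bp in replicate 2 and 2490 bp in replicate 4 among the 1872 strongest regions. It was 3387.5 bp and 3521 bp among the rest. The difference between strongest and rest was -1054 bp ± 32.2 (SD, n = 2), so it exceeded the spread between the libraries. With only the 420 strongest candidates as the background, the difference in median TSS distance between peaks and candidates fell from -906 bp to -552.5 bp. The median interval of those candidates was 10496 bp, against 9740 bp for the peaks. Among the strongest regions of replicates 2 and 4 it was 8302 bp and 9983 bp, values that lie farther apart than that.

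At the edge of the rule, the 3 intergenic peaks nearest a TSS were at 504 bp (stv), 505 bp (lncRNA:CR45277) and 508 bp (nrv1). The 3 just outside the rule were at 499 bp (CG5973), 484 bp (for) and 482 bp (CG12402). In all, 802 peaks lay outside gene bodies, 592 of them within 500 bp of a TSS. The farthest intergenic peak was 96960 bp from a TSS, beyond the pseudogene CR41519 towards the end of arm 2L (2L:23512722-23512899, signal 114). It ranked 176 in replicate 4, and its summit lay in no region of replicate 2. The next farthest lay 33873 bp from vvl, a POU-homeobox gene (signal 62.0), and 32017 bp from CG43245 in the NijA interval (signal 165).

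Of the 209 intergenic peaks with a gene on each side, 61 were in divergent intervals (29.2%, 95% exact interval 23.1 to 35.9), 102 in tandem (48.8%) and 46 in convergent intervals (22.0%). Among the candidates that were not peaks, the shares were 25.2%, 50.9% and 23.9%. Of the 35.1 Mb of intergenic sequence that met the rule, 21.1% was in divergent, 52.5% in tandem and 26.5% in convergent intervals. Peaks per Mb were therefore 8.25 in divergent, 5.54 in tandem and 4.95 in convergent sequence. The divergent share was 28.2% among the strongest regions of replicate 2 and 27.4% of replicate 4 (27.8% ± 0.536, SD, n = 2), above the rest of each list by 3.21 points ± 0.983. The exact interval of the 210 peaks includes the candidates' share and not the share of sequence. The nearest gene end was a 5′ end for 108 of 209 peaks (51.7%), against 48.2% of candidates, and within tandem intervals 47 of 102 summits were nearer to the 5′ end of the next gene. With protein-coding genes alone, the divergent share was 34.6%.

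**Figure D2:**
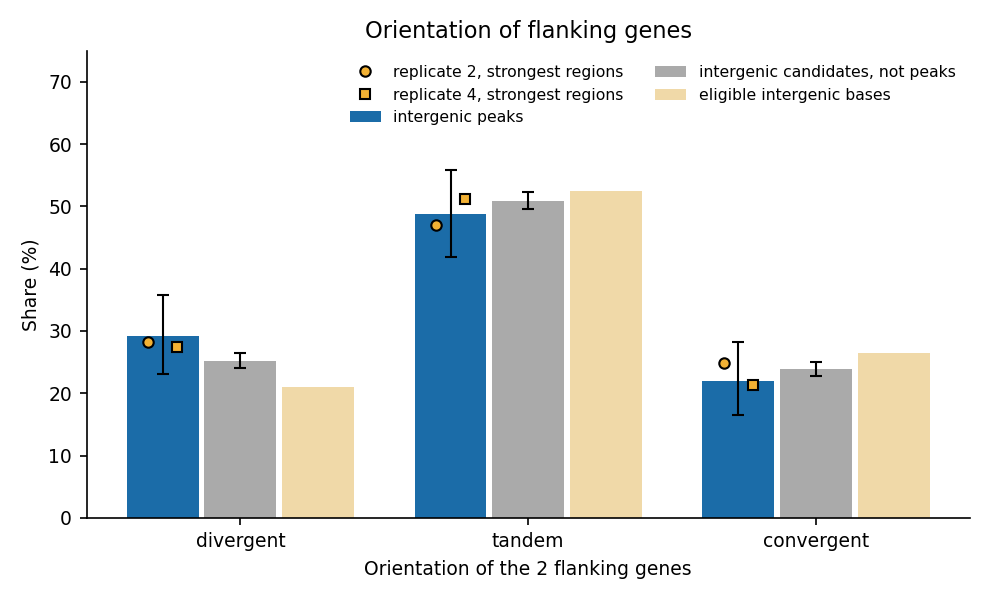
Share of intergenic peaks and of intergenic candidates that are not peaks in intervals with divergent, tandem and convergent flanking genes, in percent, with 95% exact intervals as error bars, beside the share of intergenic sequence that met the rule; the circle and the square give the strongest regions of replicate 2 and replicate 4. The divergent bar is at 29.2% for peaks, 25.2% for candidates and 21.1% for sequence.

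The flanking genes were protein-coding on both sides for 90 of 209 peaks (43.1%) against 48.7% of candidates. A gene annotated as ncRNA, a class that leaves out tRNA, snRNA and snoRNA genes, lay on at least 1 side of 107 (51.2%) against 48.2%. Genes for tRNA were 2.63% of the flanking genes of peaks and 1.22% of those of candidates. A flanking gene had a peak within 500 bp of a TSS of its own in 38 cases (18.2%, 13.2 to 24.1). The share was 9.35% of candidates and 10.5% of the 420 strongest candidates. That share was 16.4% for the strongest regions of replicate 2 and 19.8% for those of replicate 4, above the rest by 9.76 points ± 1.82 (SD, n = 2). No intergenic summit lay in an annotated transposable element (0 of 210, exact upper limit 1.74%), while 113 of 5206 candidates did (2.17%). So did 6 of the 420 strongest candidates (1.43%), a share inside that limit. Among the strongest intergenic regions, 2 of 213 in replicate 2 and 0 of 198 in replicate 4 did.

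Intergenic peaks lay near other peaks. Another peak of any kind was within 5 kb of 82 intergenic peaks (39.0%), of 12.8% of candidates and of 18.3% of the 420 strongest candidates. It was within 5 kb of 32.9% and 36.4% of the strongest intergenic regions of replicates 2 and 4, and of 11.8% and 11.9% of the rest. Regions that overlap add to this count: 12 peaks had another peak within 250 bp, among them 4 pairs of intergenic peaks. For the other 70, the nearest peak was more than 500 bp away.

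The 210 peaks fell in 170 intervals, of which 143 held a single peak, 18 held 2 and 9 held 3 or more. The interval between NijA, a gene for a ninjurin-type membrane protein, and CG43245 is 75047 bp long and held 5 peaks with signals of 165 down to 56.7. All 5 were in the part towards CG43245, spread over 29871 bp. The interval of 19063 bp between lncRNA:CR44363 and CG7560 also held 5, within 6998 bp, with signals from 74.3 to 117. Intervals with 3 peaks each lay between COX7AL2 and CG31668, lncRNA:CR44603 and lncRNA:CR45695, CG13321 and Psc, tRNA:Ile-TAT-1-2 and CG13898, lncRNA:CR44853 and lncRNA:CR44854, Doc2 and lncRNA:CR46451, and scyl and lncRNA:CR44720. Doc2 encodes a T-box factor of the heart and amnioserosa, and scyl a growth inhibitor of the TOR pathway. Another peak lay on the other side of Doc2 (signal 75.6), so that this gene flanked 4 peaks with signals of 57.4 to 75.6.

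**Figure D3:**
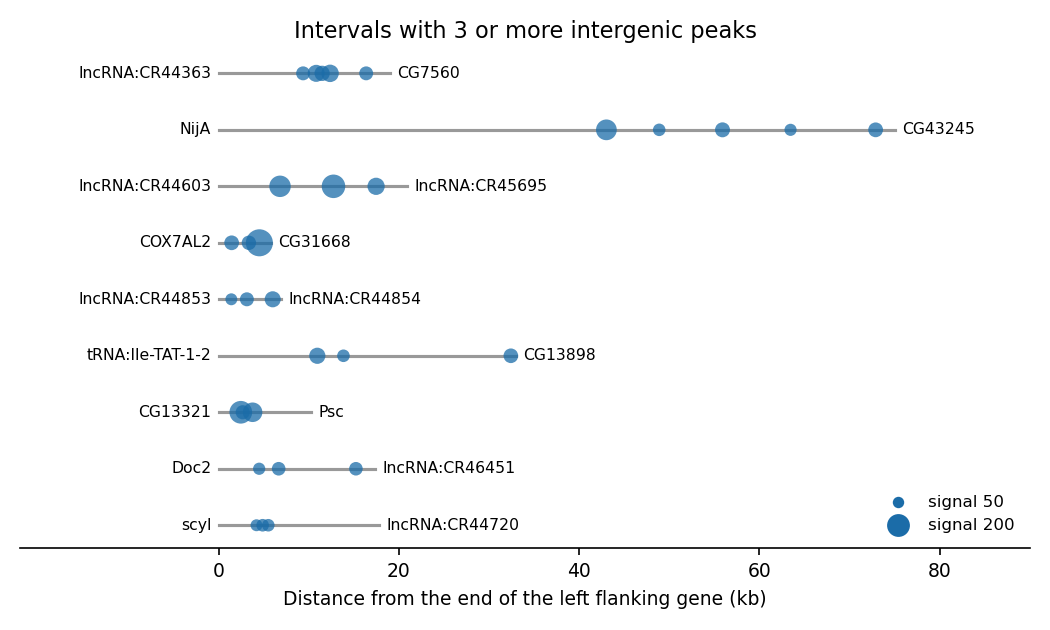
The 9 intergenic intervals with 3 or more peaks, each drawn to scale as a line from the end of the left gene (0) to the start of the right gene in kb; each disc is a peak summit and its area is proportional to the deposited signal. The 5 peaks of the NijA interval lie in its right part, and those of CG13321 and Psc, spread over 1308 bp, partly overlap.

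Several genes that regulate development flanked an intergenic peak. Of 3816 genes that flank an intergenic candidate or peak, 328 flanked a peak (8.60%). For 7 genes of the Polycomb and trithorax groups the count was 4 (57.1%), for 29 segmentation genes 8 (27.6%), for 55 other developmental transcription factor genes 10 (18.2%) and for 68 Hox and homeobox genes 11 (16.2%). These shares are a description, since neighbouring genes share a peak and the lists overlap. Developmental genes also have more intergenic sequence beside them: the median was 16775 bp for segmentation genes and 11026 bp for homeobox genes against 1532 bp for all genes, and the part of that in the counts was not tested. The median over the 21 Polycomb and trithorax genes beside qualifying sequence was 325 bp, but the 4 counted genes flank long intervals, of 36783 bp (Su(z)2), 10284 bp (Psc) and 2923 bp (ph-d and ph-p). Of all 21 such genes, the 4 are 19.0%, against 3.52% of all genes counted the same way.

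All 4 Polycomb genes encode subunits or relatives of subunits of Polycomb repressive complex 1, and they form 2 pairs of neighbouring duplicates. Su(z)2 flanked the strongest peak. Psc flanked 3 peaks towards CG13321, with signals of 198, 147 and 76.6, in a convergent interval, so these peaks face its 3′ end, and the peak nearest a TSS of Psc was 4198 bp away. The ph-d and ph-p genes, which encode polyhomeotic proteins, flanked an overlapping pair of peaks with signals of 158 and 67.9, and ph-p also had a peak within 500 bp of a TSS.

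Among segmentation genes, slp1 and slp2, fork head factors of the pair-rule and segment polarity steps, flanked 2 peaks (signals 180 and 57.0). The others included ptc, the Hedgehog receptor (81.4), and the homeobox gene oc (76.4). Among the listed homeobox genes, those with the strongest peaks were C15 (224), the neighbours eyg and toe, eye-field Pax genes that flanked the same peak (77.6), and oc. The zinc finger homeobox gene zfh2 was not on the list, and it flanked a peak of 116. The peak of 224 lay 579 bp from a TSS of sp3, its other flanking gene. The peak nearest a TSS of C15 was a different one, 12024 bp away with a signal of 62.2. The other developmental factors were led by bin, a fork head factor of the visceral mesoderm (115), aop, an ETS repressor (98.6), and the Sox genes Sox21a and Sox21b (97.5). Signalling genes contributed ptc, vn, an EGF receptor ligand (81.2), and fz, a Frizzled receptor (55.2), or 3 of 25. Axon guidance genes contributed unc-5 (82.0) and robo2 (79.0), 2 of 31.

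Other lists ranged around the 8.60% of all genes. For tRNA genes the count was 7 of 49 (14.3%), led by tRNA:Ser-GCT-2-2, which shares 2 peaks with foxo (strongest 130), tRNA:Phe-GAA-1-7 (102), tRNA:Ile-TAT-1-2 (101) and tRNA:Gly-GCC-1-4 (89.1). For long non-coding RNA genes it was 92 of 858 (10.7%), led by lncRNA:CR45641 and lncRNA:CR45643 (326) and lncRNA:CR44603 and lncRNA:CR45695 (213). Cytosolic ribosomal protein genes gave 2 of 19, RpS7 (86.1) and RpS23 (62.4). Odorant binding and chemosensory protein genes also gave 2 of 16, CheA75a (69.8) and Obp56h (66.6). Antisense RNA genes gave 3 of 37, asRNA:CR45466 (94.4), asRNA:CR45260 (70.6) and asRNA:CR45326 (66.2). The cuticle protein gene Cpr76Ba (67.2) was 1 of 33, Cyp9f2 was 1 of 16 cytochrome P450 genes, and mir-4981 (98.7) was 1 of 10 microRNA genes. None of 51 chemosensory receptor genes flanked a peak (exact upper limit 6.98%), nor any of 4 architectural protein genes or 3 mitochondrial ribosomal protein genes, lists too short to read.

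Most intergenic peaks lay in a listed region of both libraries. The summit lay inside a region of both for 205 of 210, against 27.4% of candidates, which the reproducibility step itself favours. Ranks refer to the 30000 regions of each library list, which reach far below the strongest regions. The ranks of matched regions went down to 16638 in replicate 2 and 11209 in replicate 4. The median rank was 1029 in replicate 2 and 1060 in replicate 4, and 102 peaks ranked better in each. Among the strongest 1872 regions of both libraries were 130 (61.9%, 95% exact interval 55.0 to 68.5), against 1143 of the 1662 other peaks (68.8%, 66.5 to 71.0). Across the intergenic peaks the ranks had a Spearman rho of 0.467, against 0.538 for the other peaks, as a description of regions that share libraries.

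In 30 intergenic peaks the ranks were more than 4-fold apart, 19 of them better in replicate 4 and 11 better in replicate 2. Those most shifted to replicate 4 lay beside zfh2, a zinc finger homeobox gene, and Asator (ranks 202 in replicate 4 and 3371 in replicate 2), Tmc and LanB2 (687 and 11337), CG31882 and Apoltp (1280 and 16638), lncRNA:CR44513 and lncRNA:CR42719 (1188 and 12780), and jp and lncRNA:CR44149 (215 and 1801). GC content in the 101 bp at these summits was 35.6% to 51.5%. Those most shifted to replicate 2 lay beside Paics and lncRNA:CR44619 (714 in replicate 2 and 11209 in replicate 4), scyl (632 and 7277), aop (674 and 6123), sm (305 and 2630) and Psc (90 and 1370). Their GC content was 28.7% to 39.6%. Across the libraries' own weaker intergenic regions, median GC at the summit was 37.6% in replicate 2 and 42.6% in replicate 4; its part in the rank shifts was not tested. The Psc peak took its rank of 90 from a replicate 2 region that also held the stronger peak 208 bp away, and 6 intergenic peaks shared a replicate 2 region in that way.

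**Figure D4:**
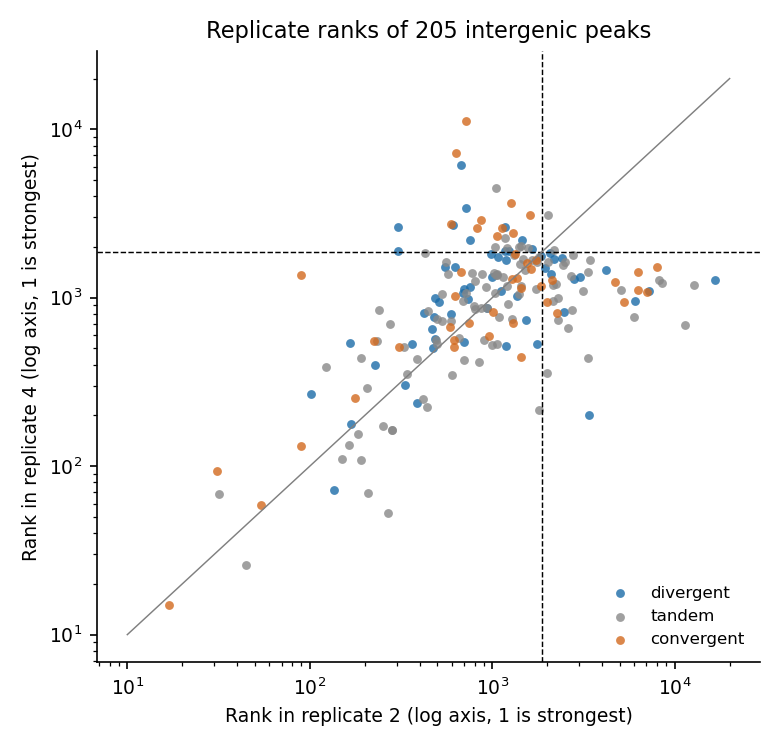
Rank in replicate 4 against rank in replicate 2 (both log axes, 1 is the strongest), coloured by the orientation of the flanking genes. Shown are the 205 intergenic peaks whose summit lay in a listed region of both libraries. The solid line marks equal ranks and the dashed lines mark rank 1872; 130 peaks lie to the lower left of both dashed lines.

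GC content dipped at the summits. In the 101 bp around each summit, the median was 33.7% over the 210 peaks, against a median of 45.0% for the mean of the windows centred 300 bp to each side. It was lower at the summit in 164 of 210 (78.1%, 95% exact interval 71.9 to 83.5), and by 10 points or more in 115. The median difference was -12.1 points in the intergenic peaks, 0.495 points in the 5206 candidates and -8.42 points in the 420 strongest of these. It was -13.4 points in the 1047 peaks within 500 bp of a TSS, so the dip is not particular to intergenic peaks. The strongest regions of replicates 2 and 4 had differences of -12.9 and -10.4 points, while the rest of their lists had -2.48 and 1.98 points. The median difference was -11.4 points beyond 5 kb of a TSS and -12.9 points nearer, and -11.9, -10.1 and -13.9 points in divergent, tandem and convergent intervals. The flanking windows lie where GC content of the intergenic peaks was raised. In 51 bp windows its mean was 45.1% and 44.6% at 300 bp to the left and right, but 40.9% and 40.4% at 600 bp. Differences from the flanks therefore combine low GC at the summit with high GC beside it.

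**Figure D5:**
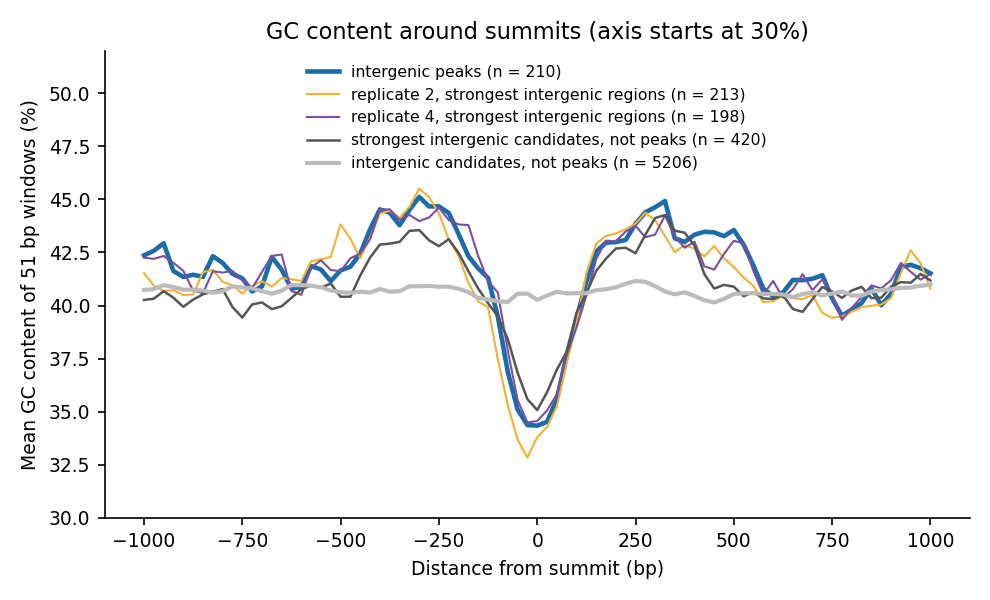
Mean GC content in 51 bp windows (percent, axis from 30%) by distance from the summit in bp, for intergenic peaks, the strongest intergenic regions of each library, and intergenic candidates that are not peaks, all of them and the 420 strongest. The line of the intergenic peaks falls to 34.3% at the summit and rises to 45.1% at 300 bp to the left, while the line of all candidates stays near 40.3% to 40.9% at these points.

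Short words of A and T stood at the summits. The 5 words of 7 bases that stood out most in the 1662 other peaks were AAAATAT first, then TTAAAAA and next TTTAAAA, followed by TATTTAA and last by ATTTTAA, counted on both strands. At least 1 was in the 101 bp at 82 of 210 intergenic summits (39.0%, 95% exact interval 32.4 to 46.0), against 18.3% of their flanking windows, 25.9% of candidates and 49.1% of the other peaks. Among the 420 strongest candidates the share was 37.6%, close to that of the peaks. AAAATAT, the leading word, was at 35 intergenic summits (16.7%), in 6.19% of the flanking windows and at 18.3% of the summits of the strongest candidates. In the strongest intergenic regions of replicates 2 and 4, 39.0% and 34.3% held a word, and 17.8% and 17.7% of their flanks. At the summits of the rest of each list the shares were 31.8% and 23.8%, so the gap was small in replicate 2. Base composition differed between summit and flank in the same direction, and its part in the word counts was not tested.

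The core of the CTCF motif, AGGTGGCGC on either strand, was in the summit window of 6 of 210 intergenic peaks (2.86%, 95% exact interval 1.06 to 6.11). CTCF is an insulator protein conserved from flies to mammals. The core was in 7 of 5206 intergenic candidates (0.134%) and in 3 of the 420 strongest of them (0.714%, 0.148 to 2.07), an interval that overlaps that of the peaks. It was in 1 of 420 flanking windows (0.238%), in 7 of 1047 peaks within 500 bp of a TSS (0.669%) and in 18 of all 1872 peaks (0.962%). Among the strongest intergenic regions it was in 5 of 213 in replicate 2 and 4 of 198 in replicate 4, against 6 of 5604 and 11 of 5460 of the rest. The counts are small, and the motif was 1 of 12 searched. The 6 peaks lay beside jp (signal 119), soti and cv-c (106), CG14762 and mir-4981 (98.7), L (62.1), sbr (59.98) and CG15615 (59.2), and the soti and CG15615 windows held 2 copies each. The 101 bp at the matches on arms 2L, 3R and X follow, plus strand of dm6, with the core in capitals on whichever strand it lies.
The peak between jp and lncRNA:CR44149, 2L:9567472-9567572: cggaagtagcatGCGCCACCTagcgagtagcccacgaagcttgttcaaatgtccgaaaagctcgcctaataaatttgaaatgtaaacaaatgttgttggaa
The peak between soti and cv-c, 3R:14391366-14391466: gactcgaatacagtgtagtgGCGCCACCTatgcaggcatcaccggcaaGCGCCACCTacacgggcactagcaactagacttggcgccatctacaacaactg
The peak between lncRNA:CR45624 and sbr, X:10832510-10832610: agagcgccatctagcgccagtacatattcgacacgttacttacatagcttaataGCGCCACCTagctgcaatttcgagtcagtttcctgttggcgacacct
The copy nearest the summit lay 34 bp from it at jp, 2 bp at cv-c and 8 bp at sbr.

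The motif of M1BP, a factor of promoters in flies, GGTCACACT on either strand, was in 1 intergenic summit window (0.476%) and in 4 of 5206 candidates (0.0768%). That window, between slp1 and slp2 and 4338 bp from the nearest TSS, held 2 copies, shown here in capitals on the plus strand.
The peak between slp1 and slp2, 2L:3832452-3832552: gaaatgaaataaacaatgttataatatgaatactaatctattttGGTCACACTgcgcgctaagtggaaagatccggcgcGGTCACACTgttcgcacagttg
The Zelda word CAGGTAG was at 3 intergenic summits (1.43%, against 0.327% of candidates): beside tara, beside Glut3 and lncRNA:CR45750, and between Sox15 and RpS23. The core of Su(Hw), an insulator protein, GCATACTTT, was at 2 (0.952%, against 0.423% of candidates and 1.43% of the strongest 420), between osp and CG15282 and between CG30089 and Zasp52. The DRE word TATCGATA and the Ohler 6 word AAAATACCA, both of promoters, were at none of the 210 (exact upper limit 1.74% each). Among candidates the DRE word was at 0.134% of summits and the Ohler 6 word at 0.211%. Both shares lie inside that limit, so their absence does not set the peaks apart from candidates. The Pho word GCCATNTT was at 5 summits (2.38% against 2.29%), E-boxes CANNTG at 84 (40% against 40.3%) and the homeodomain word TAATTA at 17 (8.10% against 8.11%). GAGAG was at 9.05% of summits, close to the 9.78% of candidates. It was in 17.9% of the flanks of peaks, against 11.2% of the flanks of candidates. Peaks within 500 bp of a TSS were alike, with 9.46% at summits and 16.7% in flanks. CGATA, the word of BEAF, was at 11.4% of summits, 7.86% of flanks and 9.66% of candidates. TATAAA was at 17.6% of summits, 9.76% of flanks, 13.9% of candidates and 18.1% of the strongest 420 candidates. A match to a word is a description of the sequence and not a binding site.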

How the data were processed

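The deposited dm6 data are peak lists (narrowPeak): 1 list for each library, 1 for both libraries pooled and 1 of reproducible peaks, made from these by the irreproducible discovery rate, per the deposited read-me files. The deposited signal of a region was used to rank and describe regions within a list. Not given in the sources used here are its scale, the aligner, the caller and the cutoff for reproducibility. DNA was sheared to 200-800 bp with a Bioruptor, per the labels. Depth is unknown. Lists on dm3 were not used.

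Positions are 1-based, on the assembly of the dm6 lists, with genes of Ensembl release 115. A flanking gene is the nearest gene body on each side. Candidates that are not peaks are pooled regions absent from the reproducible list, and can be background. In each library's list, the 1872 strongest regions were set beside the rest, and mean ± SD over the 2 libraries gives the spread. A peak was matched to a library region that held its summit. Intervals are 95% exact binomial (Clopper-Pearson) and cover counting error only. No test was run: there is 1 group, and regions are not replicates. The sources do not say that the 2 libraries came from separate collections of embryos beyond calling them biological replicates.

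Words and motifs were sought on both strands in 101 bp windows at the summit and 300 bp to each side. The words were chosen on the 1662 peaks that are not intergenic. Genes are named by a written rule: those beside the 20 strongest peaks and beside intervals with 3 or more, the 5 peaks most shifted to each library, the weakest and the farthest 3, the 3 strongest candidates that are not peaks, and up to 4 per list. Genes beside motif matches and at the edge of the 500 bp rule were named after their values were seen. The peaks, lists and alternatives were chosen with earlier results of these data known. Scripts ran in Python 3.11.15 with numpy 2.4.6, pandas 2.3.3 and scipy 1.17.1 and were tested on simulated data.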

Additional observations from a re-analysis of the deposited data

How the results depend on the processing

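Of 77 recomputed values for 15 results, 26 moved by less than the SD between the 2 libraries (or stayed inside the exact interval) and 51 moved by more. Only 9 of the 77 were signed differences, and these kept their sign; the others are shares and lengths, which have none. The intergenic share of peaks was 15.8% with a TSS distance of 250 bp, 8.87% with 1000 bp, 9.94% in the strongest 936 peaks and 13.8% with protein-coding genes only. It was 10.6% to 11.4% in the single libraries. The divergent share was 32.2% at 250 bp, 28.5% at 1000 bp, 31.5% in the strongest 936, 34.6% with protein-coding genes only, 26.9% with transposable elements as genes, and 27.4% to 28.2% in the single libraries. The tandem share was 51.9%, 44.8% and 44.0% at 250 bp, at 1000 bp and with protein-coding genes only. The convergent share was 15.9%, 26.7% and 17.4% at 250 bp, at 1000 bp and in the strongest 936, and 21.3% to 24.9% in the single libraries.

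The median TSS distance was 1302.5 bp, 3567.5 bp and 1968 bp under those 3 settings, 4405 bp with protein-coding genes only, 2127 bp with transposable elements as genes, 2133 bp with 1 peak per interval, and 2311 bp to 2490 bp in the single libraries. The share over 5 kb was 18.6%, 33.1%, 23.7%, 44.6%, 23.4% and 24.1% in the same order, and 24.2% to 26.8% in the single libraries. The median interval was 5886 bp, 11796 bp, 7657 bp, 17469 bp and 8066.5 bp for the first 5 of these, and 8302 bp to 9983 bp in the single libraries. These distances follow the definitions of gene and TSS.

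Against only the 420 strongest candidates, the difference in median TSS distance was -552.5 bp and that in the GC dip -3.71 points, from -906 bp and -12.6 points against all candidates. Peaks among the strongest of both libraries rose to 88.1% with the 3744 strongest regions of each. The share with a leading word was 60.5% with 100 bp on each side, 64.8% with 6 bases and 18.6% with 8 bases, always above the flanks (31.2%, 41.2% and 9.29%). With 100 bp on each side the GC dip was -10.2 points. The CTCF core was in 3.23% of the intergenic ones of the strongest 936, 3.53% with 1 peak per interval, 3.33% with 100 bp on each side, and 2.02% to 2.35% in the single libraries. The settings for the GC dip and the CTCF core, and 1 peak per interval, were chosen after seeing the data. Depth is unknown, so no limit from read counts can be given.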

Other observations

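Intergenic peaks were spread unevenly over the arms. There were 7.89 per Mb of qualifying intergenic sequence on 2L (53 peaks) and 7.82 on 3L (71), against 3.76 on 2R (28), 4.56 on 3R (35) and 3.77 on X (20). The small chromosome 4 had the highest density, 12.2 per Mb, from 3 peaks. Arm 3L held 33.8% of intergenic peaks, 29.3% of intergenic candidates and 24.9% of the sequence, and 3R held 16.7%, 22.1% and 21.0%. In the single libraries, 3L held 35.3% ± 1.48 (SD, n = 2) of the strongest intergenic regions, above the rest of each list by 6.86 points ± 0.955, and 3R held 16.0% ± 0.548, below the rest by a difference of -6.65 points ± 0.416. The share of intergenic candidates that were peaks was 4.37% on 2L, 4.44% on 3L, 2.95% on 3R, 3.55% on 2R, 3.51% on X and 4.92% on chromosome 4. On chromosome 4, 3 of 7 peaks were intergenic, 2 of them beside lncRNA:CR43437 (signal 119) and between Asator and zfh2 (116).

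The share of intergenic regions rose down the pooled list. It was 8.0% for ranks 1 to 100 and also for ranks 101 to 500, 12.2% for 501 to 1000, 12.5% for 1001 to 1872, 15.6% for 1873 to 5000 and 21.4% for the last 8750 regions.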
